A study of Mus musculus with 24 samples.

Results

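The 10 genes described here encode the machinery by which a B cell shows peptides to helper T cells on major histocompatibility complex (MHC) class II. They are Ciita, Cd74, H2-Aa, H2-Ab1, H2-Eb1, H2-DMa, H2-DMb1, H2-DMb2, H2-Oa and H2-Ob. They were chosen by name for their role and not for a measured value, though with earlier results of these data known. Every consensus ATAC-seq peak overlapping a gene body of the GENCODE annotation, extended by 10 kb on each side, was taken as a member. That rule gave 52 of the 65483 peaks, and 10 of these 52 lay within 10 kb of 2 or 3 of the genes. The sum of a gene's peaks is called its window, and 16571 protein-coding genes had a window with at least 1 peak.

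MHC class II molecules are pairs of an alpha and a beta chain, here H2-Aa with H2-Ab1, and H2-Eb1, the beta chain of the second pair. The invariant chain Cd74 guides them to the endosome, H2-DM exchanges its remnant for antigen peptide, and H2-O restrains H2-DM in B cells. Ciita is the co-activator that switches the group on: it does not bind DNA itself but sits on a complex of RFX, NF-Y and CREB factors at the X and Y boxes of their promoters. Germinal center (GC) B cells need this display to obtain help from T follicular helper cells.

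ATAC-seq measures open chromatin by the fragments that a transposase releases. GC B cells were sorted as CD38- FAS+ cells from spleens 10 days after immunization with sheep red blood cells. All mice, the controls included, carried Cg1Cre+/-, a Cre driven from the Cγ1 locus that recombines in GC B cells, on a C57BL/6J background. Mice were age-matched. The control genotype (WT, 4 mice) carried nothing further. The C mice (4) were in addition Crebbp fl/+, the K mice (4) Kmt2d fl/+, and the CK mice (5) carried both floxed alleles, so each mutant kept 1 intact copy of the histone acetyltransferase Crebbp, the histone methyltransferase Kmt2d, or both. The comparison asks how losing 1 copy of either or both regulators alters accessibility at the class II genes.

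Depth ran from 17483706 to 21857738 peak fragments over the 17 libraries. The window of Bcl6, a transcription factor that defines GC B cells, held a mean of 191 CPM (fragments in a region scaled to the fragments in all peaks, after TMM scaling) in WT. Windows of 4 naive or follicular B cell markers summed to 420 to 464 CPM in WT and 404 to 428 CPM in CK. Those of 4 plasma cell markers summed to 396 to 412 CPM in WT and 402 to 419 CPM in CK. The Bcl6 level alone thus does not set these cells apart from other B cell stages. The T cell markers Cd3e and Cd8a and the myeloid marker Lyz2 had no peak in their windows. The summed window level of the other 2 T cell markers ran from 59.1 to 66.8 CPM in WT and from 57.3 to 70.1 CPM in CK. That of the 3 other myeloid markers (Csf1r, Itgam and Cd14) ran from 78.4 to 81.8 CPM in WT and from 73.1 to 79.3 CPM in CK. Fragments on the Y chromosome were found in WT mice 1 and 2, C mice 1 and 2, K mice 1, 3 and 4 and CK mice 1 and 4, and the test of a different C or CK change in mice with and without them gave an adjusted p of 1 for every member window (edgeR interaction). The study describes these mice as female, so the libraries with Y fragments go against that description. Because the libraries are bulk, fewer cells with an open region and a less open region per cell cannot be told apart.

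The promoters show where the Ciita complex would sit. RefSeq promoter sequence (GRCm38.p6) was at hand for 7 of the 10 genes. Each of the 7 held CCAAT, the Y box core, or its reverse complement ATTGG in the 250 bases before the start, as did 33.8% of all 32851 promoters. The ATTGG nearest the start lay 198 bases before it in H2-DMa. In the others it lay from 43 (H2-Oa) to 90 bases (H2-DMb2) before the start. AACNGATG, the end of the X box, stood in 3 of the 7 (H2-Eb1, H2-DMb1 and H2-DMb2) and in 1.98% of all promoters, searched on both strands. TGACGTCA stood in that of H2-Aa and in 1.55% of all promoters, and TGCGTCA in none of the 7 and in 1.75% of all. The stretches below run 5′ to 3′ on each gene's own strand, are shown because they hold the Y box core found in all 7, and have the letters of any searched motif in capitals. Only those of H2-Eb1 and H2-DMb2 hold the X box match, and that of H2-Aa holds TGACGTCA. Those of H2-Ob and H2-Oa hold, of the searched motifs, the Y box core alone. Exact matches only were searched, so a stretch with a near match is not marked.
H2-Eb1 (chr17:34305763-34305822, + strand): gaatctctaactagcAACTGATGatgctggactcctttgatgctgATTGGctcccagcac
H2-DMb2 (chr17:34145114-34145173, + strand): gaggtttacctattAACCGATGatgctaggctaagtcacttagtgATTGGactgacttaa
H2-Aa (chr17:34287857-34287916, - strand): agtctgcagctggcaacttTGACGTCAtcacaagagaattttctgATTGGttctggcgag
H2-Ob (chr17:34238803-34238862, + strand): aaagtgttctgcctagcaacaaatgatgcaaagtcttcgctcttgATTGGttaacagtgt
H2-Oa (chr17:34092291-34092350, + strand): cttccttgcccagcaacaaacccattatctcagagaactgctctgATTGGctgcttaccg
The X and Y matches were 22 bases apart in H2-Eb1 and 23 bases apart in H2-DMb2 and H2-DMb1. A match is a description of the letters and not evidence of a bound factor.

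The 3 peaks that closed in CK lay elsewhere. The central 120 bases of each are given on the + strand of mm10, with a CCAAT core in capitals where one was present.
Ciita intron (chr16:10515916-10516035): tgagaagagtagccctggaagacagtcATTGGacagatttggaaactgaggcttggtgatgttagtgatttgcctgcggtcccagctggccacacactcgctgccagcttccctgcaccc
H2-DMb1 downstream (chr17:34163927-34164046): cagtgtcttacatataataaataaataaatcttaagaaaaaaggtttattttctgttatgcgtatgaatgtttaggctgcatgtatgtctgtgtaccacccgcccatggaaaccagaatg
H2-Eb1 upstream (chr17:34299409-34299528): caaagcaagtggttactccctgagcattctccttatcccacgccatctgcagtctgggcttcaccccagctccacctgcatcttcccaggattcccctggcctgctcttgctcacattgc
None of these stretches held AACNGATG, TGACGTCA or TGCGTCA.

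Across the 52 peaks, 3 were lost in CK (adjusted p below 0.01, edgeR quasi-likelihood test, adjusted over all peaks) and 0 were gained. That is 5.77% of the member peaks, beside 3.30% of all peaks lost and 3.54% gained in CK. Member peaks were also the deeper ones, with a median of 448 fragments per library against 85.5 over all peaks. At an unadjusted p below 0.05 stood 20 of the 52 (38.5%), beside 28.9% of all peaks, and 19 of these were lower in CK (36.5% of members, beside 14.2% of all peaks). In C and in K no member peak passed (lost among all peaks: 0.101% in C and 0.828% in K). At an unadjusted p below 0.05 were 6 (11.5%) and 11 (21.2%) member peaks, beside 8.9% and 20.6% of all peaks. All 6 and all 11 were lower than in WT, as were 4.26% of all peaks in C and 10.4% in K. DESeq2 likewise called none in either. Between CK and C 1 peak, in Ciita, was lost (0.770% of all peaks lost), and between CK and K none passed (0.00916% of all peaks lost or gained), with 2 at an unadjusted p below 0.05 (3.85%, beside 7.35% of all peaks). In the test for a difference among any of the genotypes 2 of the 52 passed, beside 5.62% of all peaks.

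The called peak with the most fragments was intronic in Ciita, at chr16:10515155-10516796, where the intron also overlaps the gene Dexi. The coding start nearest to this peak was that of Dexi and not of Ciita. This Ciita intronic peak was measured in all 17 libraries. It held 65.0, 65.9, 65.8 and 79.7 CPM in the 4 WT mice and 62.8, 62.2, 73.0 and 79.0 CPM in the C mice. The K mice held 49.9, 52.0, 58.9 and 63.7 CPM and the CK mice 57.8, 53.5, 52.3, 56.2 and 55.8 CPM. Every K and CK mouse thus lay below every WT mouse, while C overlapped WT. The log2 fold change against WT was -0.33 in CK (SE 0.0742, adjusted p = 0.00412) and -0.30 in K (adjusted p = 0.0262), and in C it was 0.00 (adjusted p = 0.997). Against C, the CK level was also lower (adjusted p = 0.00987). Ciita lies 6.27 Mb from Crebbp, the gene floxed in C and CK, on the same chromosome. Without WT replicate 4, CK replicate 2 or CK replicate 3 the CK call was lost, with adjusted p = 0.0336, 0.0105 and 0.011.

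The second lay between H2-DMb1, the beta chain of the peptide exchanger, and the next gene downstream, at chr17:34162188-34165785. WT mice held 16.5, 20.1, 21.6 and 21.5 CPM, C mice 19.3, 18.9, 17.9 and 22, K mice 14.3, 15.9, 18.7 and 17.7, and CK mice 14.9, 14.3, 14.2, 15.5 and 17 CPM. CK mice lay below WT apart from an overlap between WT mouse 1 and CK mouse 5. The log2 fold change was -0.40 in CK (SE 0.0906, adjusted p = 0.0042), -0.26 in K (adjusted p = 0.114) and -0.03 in C (adjusted p = 0.961). Leaving out any of WT replicates 2, 3 and 4 or CK replicates 1, 2 and 3 moved the CK adjusted p to between 0.011 and 0.0229.

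The third lay between H2-Aa and H2-Eb1, upstream of the latter, at chr17:34299133-34299804. WT mice held 43.5, 42.7, 40.1 and 45.6 CPM, C mice 35.2, 38.3, 37.6 and 42.9, K mice 37.3, 36.5, 34.7 and 40.6, and CK mice 37.2, 32.8, 31.4, 33.3 and 40.4 CPM. CK mouse 5 lay just above the lowest WT mouse and the other CK mice lay below WT. The log2 fold changes were -0.30 in CK (SE 0.0685, adjusted p = 0.00457), -0.20 in K (adjusted p = 0.099) and -0.16 in C (adjusted p = 0.518). The call was lost without WT replicate 1, 2 or 4 or CK replicate 2, 3 or 4, with adjusted p between 0.0115 and 0.025.

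**Figure D1:**
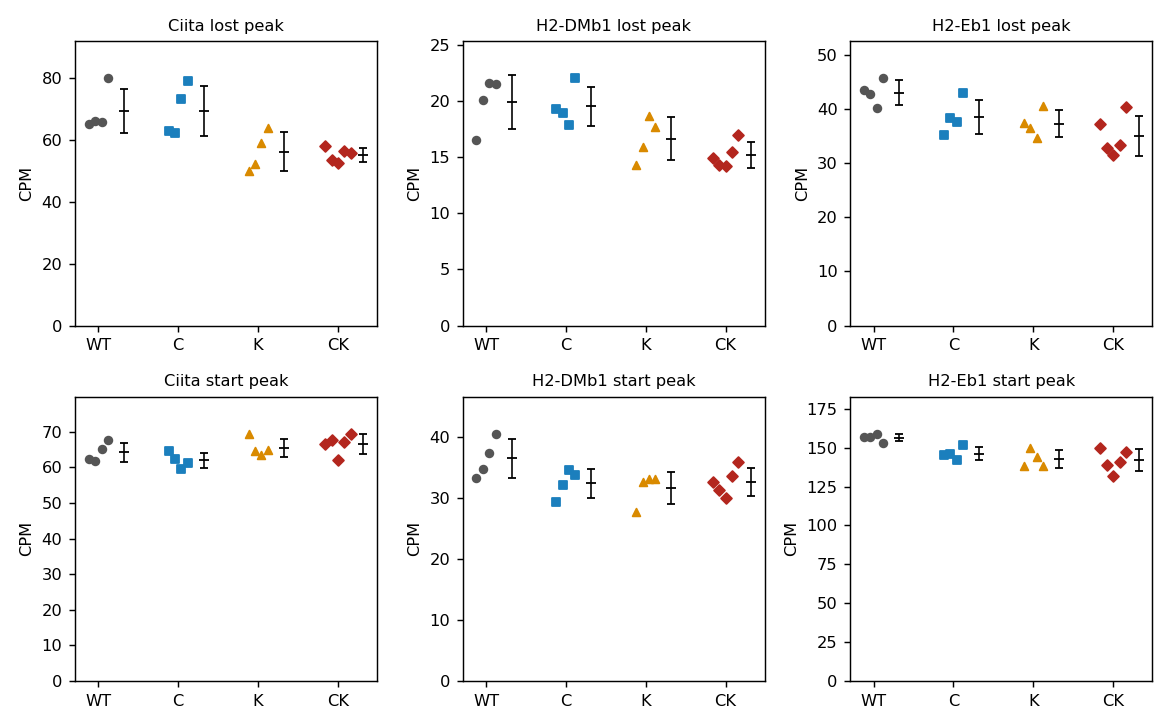
CPM (vertical axis, from 0) of the 3 peaks lost in CK (upper row) and of the start peaks of the same genes (lower row), by genotype. Points are mice, the bar beside them is the mean with its SD (n = 4, 4, 4 and 5). In the Ciita lost peak the CK mice sit between 52.3 and 57.8 CPM and the WT mice between 65.0 and 79.7 CPM, whereas at the Ciita start the genotypes overlap.

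Of the 13 member peaks within 1 kb of a member's start 0 were called in any of C, K or CK. In WT these peaks were bright per kilobase, from the 68.8 to the 99.3 percentile of all peaks. The Ciita start peak, which spans the downstream ones of its alternative starts, held 62.3, 61.9, 65.1 and 67.6 CPM in WT and 66.6, 67.7, 62.1, 67.1 and 69.5 CPM in CK, a log2 fold change of 0.05 (adjusted p = 0.478). Its most upstream start had no peak within 1 kb. The start peak of H2-Eb1 came closest to the threshold. It held 157, 157, 159 and 153 CPM in WT and 150, 139, 132, 141 and 147 CPM in CK, every CK mouse below every WT mouse, with a log2 fold change of -0.14 (SE 0.0397, adjusted p = 0.0168).

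No other start peak passed either. The H2-Aa start peak was at -0.11 (adjusted p = 0.0765), that of H2-Ab1 at -0.08 (adjusted p = 0.294) and that of Cd74, the one with the most fragments at a WT mean of 289 CPM, at -0.09 (adjusted p = 0.143). For the H2-DM and H2-O genes the values were -0.06 (H2-DMa, a peak shared with the start of Brd2), -0.12 (H2-DMb2), -0.16 (H2-DMb1), -0.12 (H2-Oa) and -0.10 (H2-Ob). A peak at an alternative start of H2-Ob was at -0.22 (adjusted p = 0.0432). The second start peaks of H2-Ab1 and H2-DMa were at -0.01 (adjusted p = 0.893) and 0.02 (adjusted p = 0.759). Below 0 lay 13 of the 13 in C (median -0.07), 11 in K (median -0.07) and 11 in CK (median -0.10). Over all 16179 peaks near a coding start 55% lay below 0 in C (median -0.01), 30.5% in K (median 0.06) and 33.5% in CK (median 0.06). The 35 member peaks away from starts had medians of 0.00 in C, -0.05 in K and -0.09 in CK. Over all 49304 peaks away from coding starts the medians were 0.01, -0.03 and -0.03. In CK 3 of the 35 were lost (8.57%), beside 3.89% of the 49304. For the start peaks below 0, the C count under loess offsets was 10 of 13, and the K count under GC-content bins was 9.

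**Figure D2:**
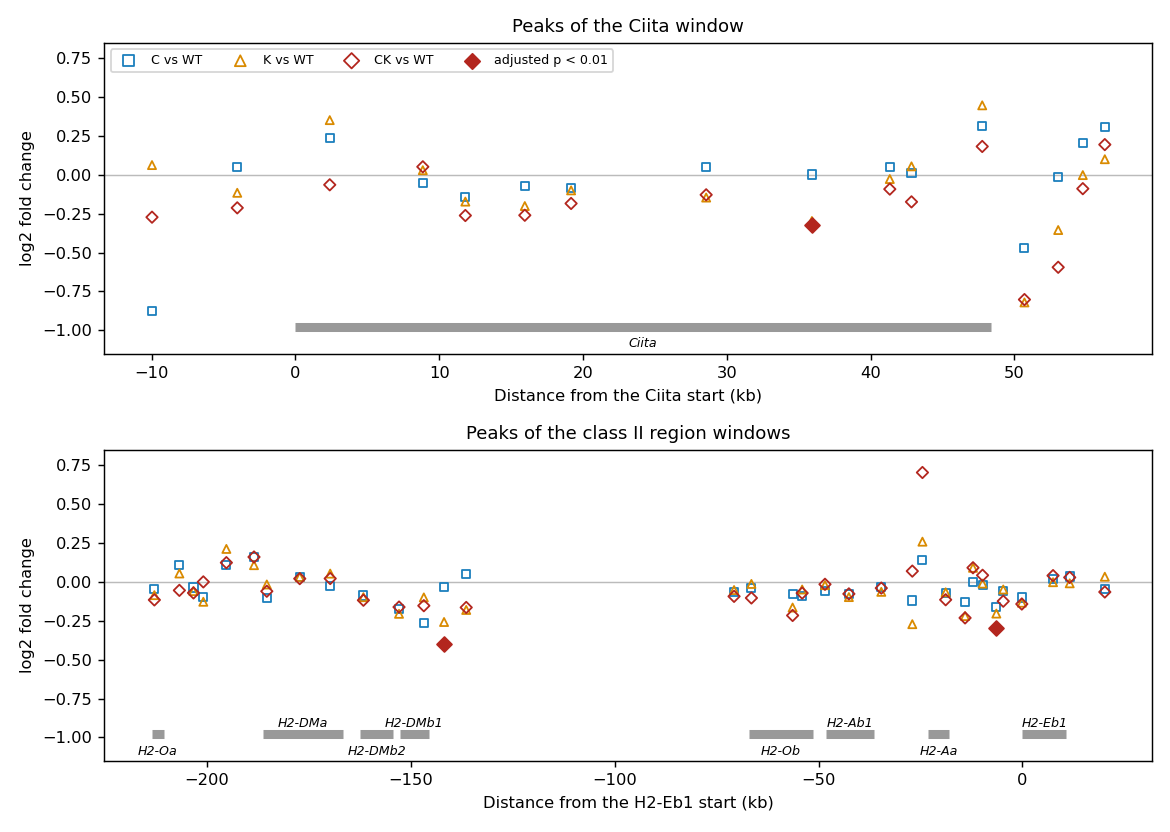
Log2 fold change against WT (vertical axis) of each peak in the Ciita window (upper panel) and in the class II region (lower panel) by distance in kb from the Ciita or the H2-Eb1 start. Squares are C, triangles K and diamonds CK, filled where the adjusted p was below 0.01, and grey bars are the gene bodies. The filled points are the 3 CK losses at -0.33, -0.40 and -0.30. The open ones at the members' starts lie between -0.22 and 0.05, and those at starts of other coding genes reach -0.82 in K and -0.80 in CK.

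Some member peaks moved more in size yet passed no test. Downstream of H2-Aa, at chr17:34280509-34282171, CK was higher by a log2 fold change of 0.70 (adjusted p = 0.102), with CK mice at 9.01, 19.3, 8.52, 6.33 and 4.90 CPM and WT mice at 6.01, 6.53, 5.76 and 5.26 CPM. The CK 2 value of 19.3 CPM stood apart from the other CK mice. At the start of Dexi, inside the Ciita window, the peak at chr16:10532105-10534100 was lower in CK at -0.59 (adjusted p = 0.0313), from a WT mean of only 5.69 CPM. Non-overlap was counted as well: every CK mouse lay below every WT mouse in 9 of the 52 peaks (17.3%), and in 6.39% of all peaks. Of the 9, 3 lay in Ciita away from its start.

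Summed over windows, all 10 genes had a negative log2 fold change in each mutant genotype, with C, K and CK medians of -0.07, -0.06 and -0.08. Over all windows the medians were -0.01, 0.04 and 0.04, and 59.0%, 33.1% and 36.5% of windows lay below 0. Loess offsets put H2-Aa and H2-DMa above 0 in CK and left 8 of 10 below in each mutant genotype, and total counts left 8 of 10 below in C. The share of all windows below 0 in CK became 49.6% under loess offsets and 49.7% under GC-content bins. No window was called in C or K (lost among all windows: 0.139% in C and 0.748% in K). In each, 3 of the 10 were at an unadjusted p below 0.05, beside 9.76% of all windows in C and 26.3% in K, and DESeq2 called 0 in C and 1 in K. 1 window, H2-DMb1, was lost in CK (3.02% of all windows lost). In the test for any genotype none of the 10 passed, beside 10.9% of all windows, with 3 at an unadjusted p below 0.05 (35% of all windows) and 2 called by DESeq2. GC-content bins changed the split of all windows called in CK from 500 lost and 1488 gained to 1070 and 1062.

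The H2-DMb1 window held 257, 249, 253 and 269 CPM in the WT mice and 235, 236, 244 and 250 CPM in the C mice. The K mice held 227, 234, 238 and 242 CPM and the CK mice 241, 223, 225, 229 and 244 CPM. Every CK mouse was below every WT mouse, with a log2 fold change of -0.14 (SE 0.0343, adjusted p = 0.00388), and in K the value was -0.13 (adjusted p = 0.0285). Its peaks are partly those of its neighbour H2-DMb2, with which it shares 3. Without WT replicate 4 the adjusted p was 0.0249, and without CK replicate 2, 3 or 4 it was between 0.0106 and 0.0118.

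The Ciita window came next. It held 262, 269, 265 and 303 CPM in the WT mice and 256, 254, 273 and 297 CPM in the C mice. K mice were at 243, 241, 251 and 268 CPM and CK mice at 244, 241, 237, 249 and 253 CPM. The CK mice all lay below the WT mice and the log2 fold change of -0.17 (SE 0.0464) just missed the threshold (adjusted p = 0.0112), while K was at -0.13 (adjusted p = 0.0861) and C at -0.03 (adjusted p = 0.905). None of the windows of the chain genes passed, with H2-Eb1 at -0.10 (adjusted p = 0.0525), H2-Ab1 at -0.07 (adjusted p = 0.205) and H2-Aa at -0.01 (adjusted p = 0.873). The Cd74 window was at -0.06 (adjusted p = 0.32) and the H2-DMb2, H2-DMa, H2-Ob and H2-Oa windows between -0.05 and -0.08. Every CK mouse lay below every WT mouse in 3 of the 10 windows (Ciita, H2-DMb1 and H2-DMb2), beside 4.89% of all windows.

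**Figure D3:**
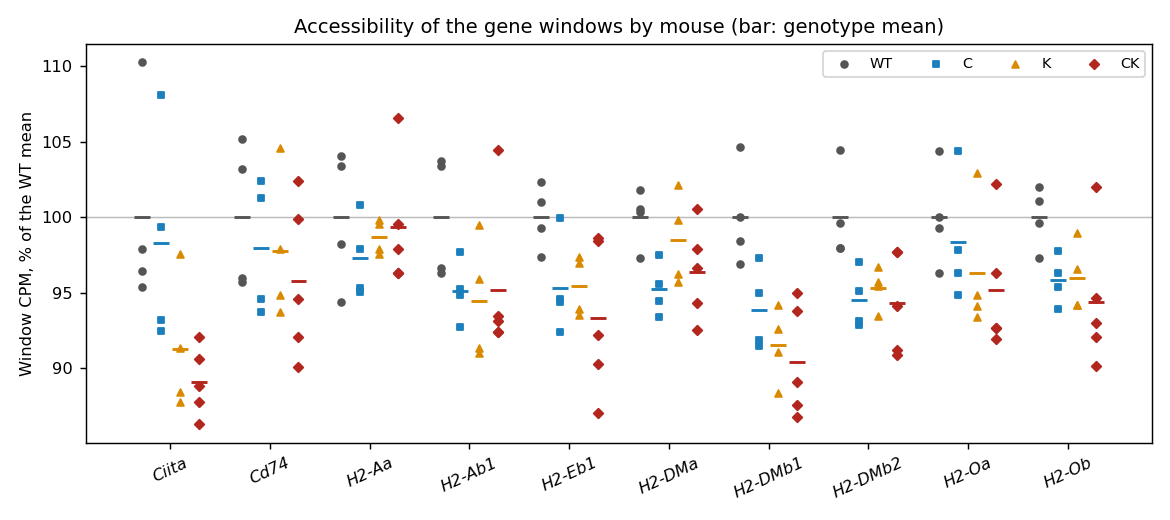
Window CPM of each gene in each mouse as a percentage of the WT mean (vertical axis), by gene and genotype, with points for mice and bars for genotype means. Ciita and H2-DMb1 show every CK point below every WT point, and the other genes except H2-DMb2 overlap.

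Genes that act with these were listed by role. Over all 16571 windows, 500 were lost and 1488 gained in CK, and 124 were lost and 370 gained in K. Of the 7 genes of the DNA-bound complex (Rfx5, Rfxap, Rfxank, Nfya, Nfyb, Nfyc and Creb1) none was called in CK, and the median change was -0.01. Rfxap, an RFX subunit, was gained in K (log2 fold change 0.21, adjusted p = 0.00778). None of the 5 measured lysosomal processing genes was called in CK, with a median change of -0.08. Lgmn, an endosomal protease, was at -0.13 (adjusted p = 0.0292) and Ctsl at 0.18 (adjusted p = 0.0343). Of the 3 turnover genes March8, a ubiquitin ligase of class II, was gained in CK (0.29, adjusted p = 0.0096), and March1, a ligase of the same family, was at -0.19 (adjusted p = 0.0191). H2-Eb2 was at -0.05 (adjusted p = 0.425), and Ifi30 and H2-Ea-ps were not among the windows tested. The windows most like Ciita over the 17 mice, on other chromosomes, were Jakmip1 (Pearson r = 0.973), Ppp1r16b (0.963) and Gngt2 (0.953), ranked among 13599 windows as a description only. Of 5 GC B cell markers (Bcl6, Fas, S1pr2, Mef2b and Gcsam) 1 was lost in CK, Gcsam (-0.34, adjusted p = 0.00339), beside 3.02% of all windows. The list median was -0.12, beside 0.04 over all windows. The summed level of the 5 markers ran from 991 to 1110 CPM in WT and from 894 to 1010 CPM in CK. Their part in the class II values was not tested.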

How the data were processed

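Omni-ATAC libraries of sorted GC B cells were aligned to mm10 by the authors with an nf-core pipeline. The authors deposited raw fragment counts per consensus peak, made with featureCounts 2.0.1 on all libraries (a fragment is counted in each peak it overlaps by at least 0.2 of its length). Groups came from the labels, and 7 wild-type centroblast and centrocyte libraries were not analysed here. The members and gene lists were chosen with earlier results of these data known. 1 GC B cell marker is not reported here. Peak counts, and their sums per gene window, were fitted across all 17 libraries with edgeR 4.0.16 (R 4.3.3, TMM, quasi-likelihood, no covariates), Benjamini-Hochberg adjusted over all features, threshold 0.01. Peaks with fewer than 10 fragments in total would have been dropped, and there were 0. The fit was tested on simulated data. Peaks named were, for each gene, the brightest within 1 kb of a start, the one with the lowest p in CK and every called one. The second start peaks of H2-Ab1 and H2-DMa and 2 further peaks were chosen after their values were seen. Alternatives included DESeq2 1.42.0, other scalings and leaving out each mouse.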

Additional observations from a re-analysis of the deposited data

Results flagged for a closer look

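Within-genotype outliers were sought by Dixon's test in 104 groups of 4 or 5 mice, of which chance alone flags about 1 in 20, and 4 were found. WT replicate 4 held 79.7 CPM in the Ciita intronic peak against 65.0 to 65.9 CPM in the other WT mice, and the call of that peak in CK was lost without it (adjusted p = 0.0336). CK replicate 1 held 295 CPM in the H2-Ab1 window against 261 to 264 CPM. K replicate 4 held 33.8 CPM at the H2-Oa start peak against 38.0 to 38.9 CPM, and K replicate 1 held 27.8 CPM at the H2-DMb1 start peak against 32.7 to 33.2 CPM.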

How the results depend on the processing

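The calls sit close to the threshold: 3 peaks and 1 window were called in CK, and leaving out 1 mouse gave 0 to 5 peaks and 0 to 2 windows. For CK against C the peak count then ran from 0 to 1, and for any genotype from 1 to 3 peaks and 0 to 1 windows. At an adjusted p of 0.05 the counts were 11 peaks and 2 windows in CK, 1 and 1 in K, 1 peak for K against C, 2 peaks and 1 window for CK against C, and 2 windows for any genotype. With a fold change above 1.5 required, 0 peaks and 0 windows remained in CK and 0 peaks in CK against C. DESeq2 gave 2 peaks in CK against C, and 1 window in K, 2 in CK and 2 for any genotype. GC-content bins gave 1 peak in K, 0 in CK against C and 2 windows in CK. Loess offsets gave 0 windows in CK. Total counts gave 1 window for any genotype. The Y signal as covariate, and fitting only the 2 genotypes, each gave 2 windows in CK.

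Gene bodies with no extension gave 1 peak and 0 windows in CK and 1 peak for any genotype. A 50 kb extension gave 5 peaks in CK and 2 in CK against C. Start peaks alone gave 0 in CK, 0 in CK against C and 0 for any genotype. Assignment to the nearest start gave 2 peaks in CK, 0 peaks in CK against C, 1 for any genotype and 2 windows in CK. It leaves out the Ciita intronic peak, whose nearest coding start is that of Dexi. The causes were not tested. The replicate block gave 7 peaks and 4 windows in CK, 1 and 2 in K, 1 peak in K against C, 4 peaks and 1 window in CK against C, and 5 peaks and 2 windows for any genotype. The labels do not say that a number marks a shared batch, and the numbers were not treated as pairs: 12 of 24 same-numbered pairs correlated above 0.1 (from -0.093 to 0.224), and 10 of 16 mice correlated best with their own number, a hint from the data that some may share one. The 3 peaks called in CK kept a negative fold change under all 26 alternatives of each, and were called in 23 (Ciita), 20 (H2-DMb1) and 20 (H2-Eb1) of them. These alternatives refit the counts from which the peaks were picked as lost, so the kept sign is not independent support. Of the 17 fits without 1 mouse, 14, 11 and 11 kept the call. Every lost call came on leaving out a WT or CK mouse. Leaving out a C or K mouse does not alter the WT and CK counts. The median member peak held 448 fragments per library. How far depth limits the calls was not tested.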
